A study of Rattus norvegicus with 6 samples.

Results

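The AP-1 family was followed in rat myocardium through 9 genes, Fos, Fosb, Fosl1, Fosl2, Jun, Junb, Jund, Atf3 and Batf. They were chosen by gene family, by matching their symbols to the gene names of a table of 32623 genes, and each matched 1 gene. The table held RNA-seq read counts and FPKM (fragment counts scaled to transcript length and library size) of 6 libraries of wild-type (WT) myocardial tissue, 3 from the sham group and 3 from the ischemia group. In the ischemia rats the left anterior descending coronary artery was tied after thoracotomy, and the libraries of both groups were labelled 30 min. Sham rats had a sham operation. The study's methods also describe reperfusion after such a ligation, of which the labels say nothing. The rats were described as male, and their strain, their age and the part of the heart that was taken are not given in the sources used here. The labels do not say that the libraries of a group came from separate rats, so the p-values measure only the spread between these samples.

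AP-1 is a transcription factor made of pairs of bZIP proteins, which hold each other through a leucine zipper and touch DNA with a basic region. Jun proteins can pair with themselves or with Fos proteins, whereas Fos proteins need a Jun-type partner, and Atf3 and Batf pair with Jun proteins as well. Several of these genes are immediate early genes, which are transcribed within minutes of a stimulus from factors already present in the cell, and in the heart Fos and Jun are known to respond to stretch, hypoxia and reperfusion.

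Libraries held 68529126 to 79591989 counts. On the Y-linked genes Ddx3y, Eif2s3y and Kdm5d, 26 reads fell in sham replicate 1 and 1772 to 4318 in each other library, so that sham replicate 1 goes against the description as male. The summed FPKM of 4 atrial genes (Myl7, Nppa, Sln and Myl4) reached 48341 in sham replicate 1 and 39203 in sham replicate 3 but 214.9 in sham replicate 2, while ischemia replicates 1 to 3 held 9610, 2078 and 1279. All 7 cardiomyocyte markers were found, with summed FPKM from 24124 to 33107 in sham and from 8733 to 17365 in ischemia. In 3 of the 7 (Myh6, Actc1 and Ryr2) all ischemia libraries were below all sham libraries, as in 15.0% of all tested genes. Groups overlapped for Tnnt2, Tnni3, Pln and Myl2. At an adjusted p under 0.05 edgeR called 0 of the 7 lower and DESeq2 3, where they called 1.53% and 12.5% of all genes lower. In bulk tissue, fewer cells of a type and less RNA per cell cannot be told apart.

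Of the 9 AP-1 genes, Fosl1, Junb and Batf rose in ischemia, with log2 fold changes of 4.69 ± 0.87 (SE), 2.63 ± 0.37 and 2.62 ± 0.55. These are 25.8-fold, 6.18-fold and 6.14-fold changes of the fitted level. The other 6 genes did not pass the test, although every one of the 9 estimates was above 0. All 9 genes entered the test, and each had a mean FPKM of at least 0.5 in sham alone, so none entered only through ischemia. The median log2 fold change of the 9 genes was 2.24, against -0.0015 over the 13964 genes tested. Without ischemia replicate 2 the median of the 9 genes was 1.23.

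At an edgeR adjusted p under 0.05 (Benjamini-Hochberg over the 13964 genes), 3 of 9 genes were higher, where 5.18% of all tested genes were. None was lower, where 1.53% of all tested genes were, and none had an unadjusted edgeR p under 0.05 in that direction, where 14.2% did. In DESeq2 none of the 9 was lower, where 12.5% of all genes were. In limma on log2(FPKM + 0.1) none was lower, where 262 of the 13964 genes were. An estimate above 0 was found for 9 of 9 AP-1 genes and 49.9% of all genes. The unadjusted edgeR p was under 0.05 for 7 of the 9 genes and, in the same direction, for 18.2% of all genes. The same 3 genes passed a log2 fold change above 2 with an unadjusted p under 0.01, which 3.31% of all genes did. In FPKM, 6 of the 9 genes had all ischemia libraries above all sham libraries, as did 23.6% of all genes. DESeq2 called 7 of the 9 genes higher at an adjusted p under 0.05, among 14.8% of all genes.

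**Figure D1:**
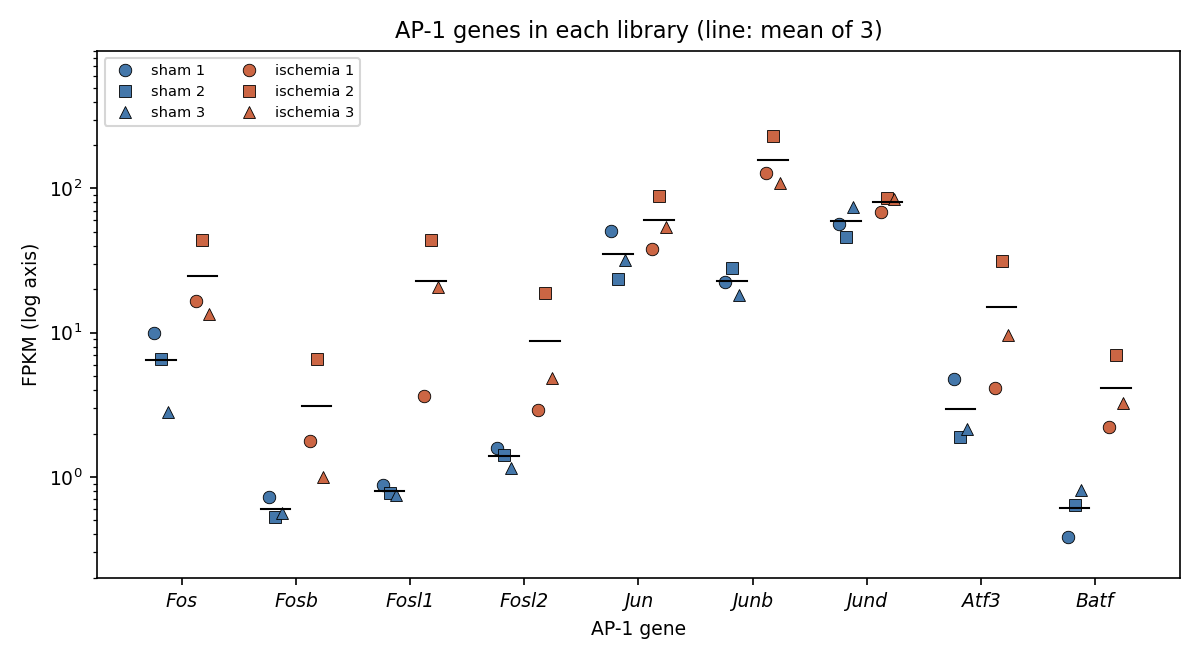
FPKM on a log axis of the 9 AP-1 genes in each of the 6 libraries, with sham in blue, ischemia in red, a marker shape for each replicate number and a line at each group mean. The groups are apart for Fos, Fosb, Fosl1, Fosl2, Junb and Batf and overlap for Jun, Jund and Atf3, and ischemia replicate 2 is the highest library for each gene.

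Promoter letters are shown for the 3 genes that rose and, next to them, for Jund, the family member whose estimate was the lowest. RefSeq (build GRCr8) gave an entry for 6 of the 9 genes, Fosb, Fosl1, Fosl2, Junb, Jund and Batf. The 250 bases before the annotated start were searched on both strands for the AP-1 site TGANTCA, the CRE site TGACGTCA, which Atf and Jun proteins can bind, the CArG box of serum response factor, the STAT-type site TTCNNNGAA and the TATA box TATAAA. Matches are in capitals. The build of the count table is not given, so its positions, used further on, cannot be set against these.
Junb, chr19:40080876-40081125, plus strand: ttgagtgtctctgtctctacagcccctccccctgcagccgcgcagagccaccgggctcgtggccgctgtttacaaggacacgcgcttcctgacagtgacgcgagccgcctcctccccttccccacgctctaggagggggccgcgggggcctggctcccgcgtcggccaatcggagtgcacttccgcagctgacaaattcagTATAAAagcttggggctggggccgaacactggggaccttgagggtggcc
Fosl1, chr1:212183635-212183884, plus strand: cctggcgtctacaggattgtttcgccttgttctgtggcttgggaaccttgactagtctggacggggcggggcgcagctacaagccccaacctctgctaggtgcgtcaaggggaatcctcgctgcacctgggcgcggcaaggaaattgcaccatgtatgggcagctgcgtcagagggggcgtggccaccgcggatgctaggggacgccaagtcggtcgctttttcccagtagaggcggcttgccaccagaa
Batf, chr6:111084467-111084716, plus strand: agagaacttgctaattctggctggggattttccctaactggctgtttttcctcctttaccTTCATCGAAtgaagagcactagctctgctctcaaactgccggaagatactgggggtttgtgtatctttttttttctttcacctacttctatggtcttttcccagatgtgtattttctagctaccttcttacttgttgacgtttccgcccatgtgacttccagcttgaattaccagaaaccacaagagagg
Jund, chr16:18769772-18770021, minus strand: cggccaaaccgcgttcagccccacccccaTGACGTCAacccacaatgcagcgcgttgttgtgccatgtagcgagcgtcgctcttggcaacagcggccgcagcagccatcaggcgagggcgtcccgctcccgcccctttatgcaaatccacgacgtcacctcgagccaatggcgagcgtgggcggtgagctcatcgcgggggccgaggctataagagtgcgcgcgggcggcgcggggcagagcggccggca

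The Junb window held a TATA box 49 bases before the start, the only match of that motif within the 4 windows shown, and the Fosb window held one 180 bases before its start. Of all 33469 RefSeq windows of this length, 12.9% held one on either strand. In the Jund window the complete CRE site TGACGTCA began 221 bases before the start, where 1.59% of all windows held it. The Batf window held a STAT-type site, TTCATCGAA, 190 bases before the start, and 7.67% of all windows had such a site. The Fosl1 window held none of the 5 motifs. No AP-1 site or CArG box was matched in any of the 6 windows, against 6.34% and 1.50% of all windows. GC content was 66% for Junb, 62% for Fosl1, 43.2% for Batf and 68.4% for Jund, with a median of 51.2% over all windows. These matches describe letters only, and no binding was measured.

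Among the Fos-type genes, Fosl1 (FRA-1, a Fos relative without the transactivation domain of Fos) changed most. It lies at chr1:220826560-220835066 on the plus strand as the table lists it. Sham replicates 1 to 3 had FPKM of 0.88, 0.77 and 0.75, whereas ischemia replicates 1 to 3 had 3.65, 44.0 and 20.6. Each ischemia library was above each sham library, and the lowest ischemia value was 4.15 times the highest sham value. Sham libraries lay close together, whereas the ischemia libraries spanned 12.1-fold, with replicate 1 far below the others. Counts were 91 to 112 in sham and 501, 5491 and 2430 in ischemia. Sham averaged 0.80 ± 0.069 FPKM (SD, n = 3) and ischemia 22.8 ± 20.3 (SD, n = 3). The edgeR adjusted p of Fosl1 was 0.0385, and its fold change was larger than that of all but 0.938% of the tested genes.

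With single libraries left out, calls were lost throughout the table. In edgeR 0 of the 13964 genes passed in either direction once sham replicate 1, sham replicate 2, sham replicate 3 or ischemia replicate 3 was left out, although 3090, 3809, 3255 and 3020 genes in turn had an unadjusted p under 0.05. Without ischemia replicate 1 10.7% of all genes were higher, and without ischemia replicate 2 3.31%. For Fosl1 the edgeR adjusted p was 0.161 without sham replicate 1, 0.0950 without sham replicate 2, 0.140 without sham replicate 3, 0.0526 without ischemia replicate 2 and 0.125 without ischemia replicate 3. It was 0.0108 without ischemia replicate 1. Over these fits the log2 fold change ranged from 3.88, without ischemia replicate 2, to 5.18. In limma on log2(FPKM + 1) it was 3.20, with an adjusted p of 0.0531.

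Fos, the founding member and a classical immediate early gene, lies at chr6:109300433-109303299 on the plus strand. Its FPKM was 9.92, 6.62 and 2.84 in sham and 16.6, 43.8 and 13.6 in ischemia. All ischemia libraries were above all sham libraries, but the lowest was only 1.37 times the highest sham value, and sham itself spanned 3.50-fold. Sham averaged 6.46 ± 3.54 FPKM (SD, n = 3) and ischemia 24.7 ± 16.6 (SD, n = 3). With a log2 fold change of 1.79 ± 0.60 (SE), Fos had an edgeR adjusted p of 0.106 and did not pass. It passed with DESeq2 (adjusted p 0.0189), and its adjusted p ranged from there to 0.223 over the alternatives. Without ischemia replicate 2 the estimate was 1.17.

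Fosl2 (FRA-2) and Fosb are the remaining Fos-type genes, and a spliced form of Fosb is known as the long-lived deltaFosB. Fosl2 lies at chr6:25598936-25616995 and Fosb at chr1:80214494-80221710, both on the minus strand. Fosl2 had FPKM of 1.59, 1.43 and 1.16 in sham and of 2.93, 18.7 and 4.83 in ischemia. Fosb had FPKM of 0.72, 0.53 and 0.56 in sham and of 1.78, 6.55 and 1.0 in ischemia. For each gene the groups did not overlap and ischemia replicate 2 stood above the other ischemia libraries, at 4.83 times their mean for Fosl2 and 4.72 times for Fosb. Their log2 fold changes were 2.50 ± 0.71 (SE) for Fosl2 and 2.22 ± 0.67 for Fosb (edgeR adjusted p 0.0773 and 0.0865). Without ischemia replicate 2 these values became 1.42 and 1.15 on the log2 scale. Fosl2 passed without ischemia replicate 1 (edgeR adjusted p 0.0308), and both genes passed with DESeq2 (adjusted p 0.00399 and 0.00727). The 2 transcripts listed for Fosb share 1 count, so the full-length and short forms were not separated.

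Among the Jun-type genes, Junb moved and Jun and Jund did not pass. Junb, a Jun protein with weaker transactivation than Jun itself, lies at chr19:26092974-26094756 on the minus strand. Its FPKM was 22.3, 28.1 and 18.2 in sham and 128.7, 230.4 and 109.7 in ischemia. Every ischemia library was far above every sham library, with 3.91 times between the nearest values, and Junb had the smallest edgeR adjusted p of the family, 0.0291. Counts ran from 2353 to 4053 in sham and from 13884 to 30808 in ischemia. Sham averaged 22.9 ± 4.95 FPKM (SD, n = 3) and ischemia 156.3 ± 64.9 (SD, n = 3).

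Junb was the only member that still passed without ischemia replicate 2 (log2 fold change 2.30, edgeR adjusted p 0.0322), and it passed without ischemia replicate 1 (0.0180). It did not pass in edgeR without sham replicate 1 (adjusted p 0.158), sham replicate 2 (0.0819), sham replicate 3 (0.125) or ischemia replicate 3 (0.110), the 4 fits in which no gene of the table passed. The estimate itself stayed between 2.30 and 2.93 when any 1 library was left out.

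Jun, the main transactivating partner and a substrate of the JNK kinases, lies at chr5:114011189-114014277 on the minus strand. Its FPKM was 50.6, 23.6 and 31.9 in sham and 38.2, 88.7 and 53.6 in ischemia. Groups overlapped, since sham replicate 1 was above ischemia replicate 1. Jun had a log2 fold change of 0.69 ± 0.35 (SE; edgeR adjusted p 0.223) and passed under none of the 15 alternatives. The estimate lay between 0.37, without ischemia replicate 2, and 0.98, without sham replicate 1.

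Jund, known as the Jun gene that is expressed without stimulation, lies at chr16:20485029-20486707 on the minus strand. Its FPKM was 56.9, 45.9 and 74.8 in sham and 69.1, 85.8 and 85.1 in ischemia. Sham replicate 3 was above ischemia replicate 1, and the ischemia libraries spanned only 1.24-fold. On the log2 scale the difference came to 0.36 ± 0.19 (SE; edgeR adjusted p 0.235). Jund was the only one of the 9 genes whose coefficient of variation was lower in ischemia (11.8%) than in sham (24.6%).

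Atf3, a stress-induced factor of the CREB/ATF type that can repress as well as activate, lies at chr13:109817728-109849632 on the minus strand. Its FPKM was 4.81, 1.89 and 2.14 in sham and 4.17, 31.2 and 9.64 in ischemia. Sham replicate 1 was above ischemia replicate 1, so the groups overlapped, and ischemia replicate 2 was 4.52 times the mean of the other ischemia libraries. Atf3 had a log2 fold change of 2.24 ± 0.74 (SE; edgeR adjusted p 0.103). It was 1.23 without ischemia replicate 2, and Atf3 passed without ischemia replicate 1 (2.66, edgeR adjusted p 0.0350) and with DESeq2 (adjusted p 0.0106).

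Batf, which lacks a transactivation domain and is best known from T cells and other leukocytes, lies at chr6:109562587-109584545 on the plus strand. Its FPKM was 0.38, 0.64 and 0.81 in sham and 2.23, 6.97 and 3.27 in ischemia. Groups were apart, with 2.77 times between the lowest ischemia and the highest sham value. Batf had the lowest counts of the family, 30, 53 and 59 in sham and 185, 525 and 233 in ischemia. For the 30 counts of sham replicate 1 the exact 95% Poisson interval was 20.2 to 42.8, which covers counting error only. The edgeR adjusted p was 0.0468. In edgeR it became 0.167 without sham replicate 1, 0.0979 without sham replicate 2, 0.140 without sham replicate 3, 0.0729 without ischemia replicate 2 and 0.134 without ischemia replicate 3. Without ischemia replicate 1 it was 0.0252. No gene of the table passed without sham replicate 1, 2 or 3 or ischemia replicate 3. Over these fits the estimates lay between 2.11 and 2.89 on the log2 scale. Batf also missed the threshold in edgeR with library totals as the only scaling (adjusted p 0.0512) and with no filter on low values (0.0569).

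Fos and Batf are near neighbours in the table, with 259287 bases between them and 2 genes in that interval. One is Jdp2, a bZIP protein that pairs with Jun and dampens AP-1, and the other is a noncoding RNA with at most 8 counts. Jdp2 had 1166, 759 and 1377 counts in sham and 1485, 2564 and 1066 in ischemia, and its log2 fold change of 0.54 did not pass (edgeR adjusted p 0.293). No listed gene overlapped any of the 9 AP-1 genes, on either strand.

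**Figure D2:**
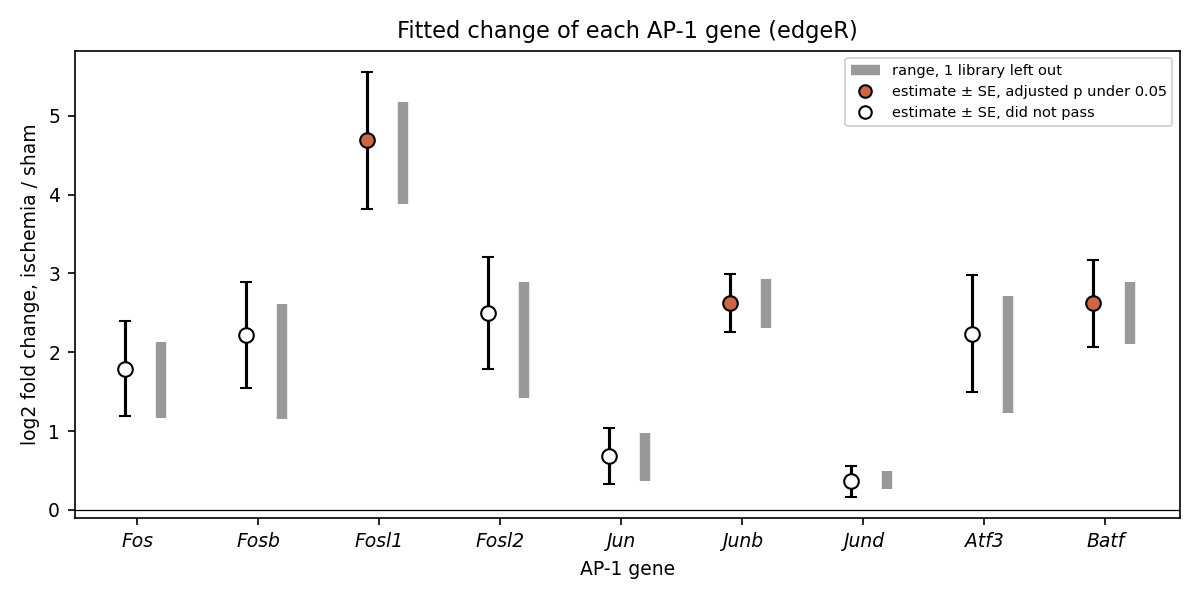
Log2 fold change of ischemia over sham for the 9 AP-1 genes from edgeR, as the estimate with its standard error (filled where the adjusted p was under 0.05) and, in grey, the range over the 6 fits that leave out 1 library. Every estimate and every grey range lies above 0, with Fosl1 at 4.69 and Jund at 0.36 as the extremes.

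FPKM is scaled to gene length, so levels can be compared between genes, subject to the length the authors used. A length worked back from counts, FPKM and library totals was 791 bases for Fosl2, the shortest, and 3883 bases for Fosb, the longest. For Jun, Junb and Jund it exceeded the span of the gene (for Jun 3196 against 3089 bases). These lengths are therefore approximate and need not be those the authors used. In sham the order of mean FPKM was Jund (59.2), Jun (35.4), Junb (22.9), Fos (6.46), Atf3 (2.95), Fosl2 (1.39), Fosl1 (0.80), Batf (0.61) and Fosb (0.60). The ranges of neighbours did not overlap between Junb and Fos, between Atf3 and Fosl2 and between Fosl2 and Fosl1. All other neighbours overlapped in their ranges. Within libraries, Jund was above Jun and Fos above Atf3 in 3 of 3 sham libraries, whereas Jun was above Junb, Fosl1 above Batf and Batf above Fosb in 2 of 3.

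In ischemia the order of mean FPKM was Junb (156.3), Jund (80.0), Jun (60.2), Fos (24.7), Fosl1 (22.8), Atf3 (15.0), Fosl2 (8.83), Batf (4.16) and Fosb (3.11). Only Junb was separated from its neighbour, and all other adjacent ranges overlapped. Within libraries, Jun was above Fos, Atf3 above Fosl2, Fosl2 above Batf and Batf above Fosb in 3 of 3. Fosl1 was above Fos in 2 of the 3 ischemia libraries, although in sham it was below Atf3 and Fosl2. Within every ischemia library the other 6 genes were below each Jun-type gene.

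The make-up of each subfamily was then compared as shares of summed FPKM, with two-sided exact permutation tests over the samples. With 3 against 3 these tests cannot give a p below 0.1, and 11 shares were compared. Junb made up 17.2%, 28.7% and 14.6% of the Jun-type FPKM of sham replicates 1 to 3, but 54.5%, 56.9% and 44.2% of it in ischemia. The share of Jund was 43.8%, 47.1% and 59.9% in sham and 29.3%, 21.2% and 34.3% in ischemia. For both genes and for Jun (39.0%, 24.2% and 25.5% against 16.2%, 21.9% and 21.6%) the groups did not overlap (exact permutation p 0.1 each, 0.22 after Benjamini-Hochberg adjustment). The difference in mean share was 31.7 percentage points for Junb, -22.0 for Jund and -9.69 for Jun. Without sham replicate 1 the difference for Jun was -4.97.

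Fosl1 made up 6.70%, 8.26% and 14.1% of the Fos-type FPKM in sham and 14.6%, 38.9% and 51.5% in ischemia. Groups were apart, although sham replicate 3 and ischemia replicate 1 nearly met, and the exact permutation p was 0.1 (0.22 adjusted). The share of Fos itself was 75.7%, 70.8% and 53.5% in sham and 66.6%, 38.7% and 33.9% in ischemia, with overlapping groups (exact permutation p 0.2, 0.275 adjusted). Shares of Fosb and Fosl2 overlapped as well (exact permutation p 0.6 and 0.5). All 4 Fos-type genes together held 8.85%, 8.54% and 3.98% of the FPKM of the 9 genes in sham and 9.34%, 20.3% and 13.3% in ischemia (exact permutation p 0.1, 0.22 adjusted). The summed FPKM of the 9 genes was 148.1, 109.5 and 133.2 in sham and 267.4, 556.1 and 301.3 in ischemia, 2.88 times higher on average (exact permutation p 0.1).

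**Figure D3:**
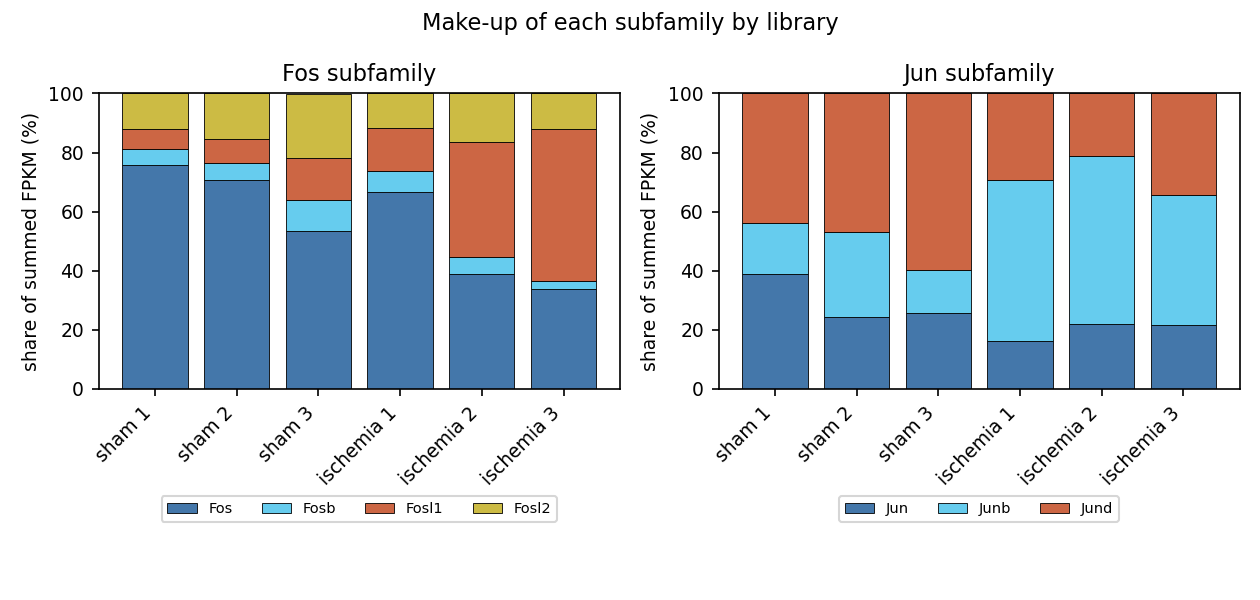
Share (%) of the summed FPKM of the Fos-type genes (left) and of the Jun-type genes (right) that each gene takes in each library, as bars stacked to the full sum. Junb takes 44.2% to 56.9% of the Jun-type FPKM in ischemia against 14.6% to 28.7% in sham, and the Fosl1 share is 51.5% in ischemia replicate 3.

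Ischemia replicate 2 was the highest of the 6 libraries for 9 of 9 genes, as it was for 39.3% of all tested genes. Among the ischemia libraries replicate 1 was the lowest for 6 genes and replicate 3 for the others, Fos, Fosb and Junb. Among the sham libraries replicate 1, the one with few Y-linked reads, was the highest for 6 of the 9 genes. For Jun and Atf3 it was the only sham library above any ischemia library. In ischemia the coefficient of variation ran from 11.8% (Jund) to 97.7% (Fosl2), and in sham from 8.58% (Fosl1) to 55.0% (Atf3).

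The summed FPKM of 12 neutrophil and monocyte markers was 24.6, 41.1 and 27.6 in sham and 1517, 4241 and 931.6 in ischemia. Of the 11 that were tested, 5 (Csf3r, Cxcr2, Il1r2, Retnlg and Mmp8) reached the FPKM minimum only through ischemia. The 6 that reached it in sham alone were all higher at an edgeR adjusted p under 0.05, where 5.18% of all genes were. Of their defining members S100a8 and S100a9 were present in every library, Retnlg had no reads in any sham library, and Fpr1 was found in ischemia replicate 2 alone. The summed FPKM of 5 T cell markers was 9.33, 10.3 and 12.0 in sham and 17.7, 25.1 and 19.4 in ischemia, and none was at 0. In edgeR 0 of these 5 were higher at an adjusted p under 0.05, and DESeq2 called 2 higher, where it called 14.8% of all genes. For 2 the unadjusted edgeR p was under 0.05 in that direction, as for 18.2% of all genes. Groups were apart for 4, where 23.6% of all genes had ischemia higher, and overlapped for Lck. The summed fibroblast markers (Col1a1, Dcn, Pdgfra and Lum) ranged from 330.5 to 1125 in sham and from 171.6 to 414.0 in ischemia, and 4 endothelial markers from 109.4 to 151.9 and from 112.1 to 149.6. The part of these cells in the AP-1 values was not tested, and their amount cannot be told apart from the groups.

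For Fos, Jun and Atf3 the tested genes with the most similar profile were found by the root mean square difference of centred log2 CPM over the 6 libraries. Closest to Fos was the zinc-sensing receptor gene Gpr39 (0.30), and the next 2 were gene models with placeholder names. Closest to Jun were Cdc7 (0.082), Cstf3 (0.10) and Atxn3 (0.11). Closest to Atf3, after a placeholder gene model (0.29), were Pmaip1 (0.31), which encodes the BH3 protein Noxa, and Soat1 (0.32), which encodes an enzyme that makes cholesterol esters. Within the family Fosl2 was nearest to Atf3 (0.39, rank 13 of all genes), Fosb was nearest to Fos (0.54, rank 39), and the member nearest to Jun was Jund, at rank 2965 of all genes (0.45).

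Around the family, 14 bZIP factors that can pair with AP-1 proteins or act beside them were described next. Batf3, a relative of Batf known from dendritic cells, was the only one that rose (1 of 14, against 5.18% of all genes), by 2.79 ± 0.57 (SE) on the log2 scale (edgeR adjusted p 0.0445). Its FPKM was 0.88, 1.60 and 1.42 in sham and 6.15, 17.7 and 6.48 in ischemia. No factor of the list passed in edgeR without any 1 of sham replicates 1, 2 and 3 or of ischemia replicates 2 and 3 (4 to 7 of the 14 at an unadjusted p under 0.05, where 21.6% to 27.3% of all genes were), and 6 passed without ischemia replicate 1, where 10.7% of all genes did. Apart from the fit without ischemia replicate 2, no gene of the table passed in those fits with 0 calls. None of the 14 was lower in edgeR or DESeq2, where 1.53% and 12.5% of all genes were. The same held in limma on log2(FPKM + 0.1), where 262 of the 13964 genes were lower. None had an unadjusted edgeR p under 0.05 in that direction, where 14.2% of all genes did.

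The next highest of these factors was the small Maf gene Maff (1.88), for which the edgeR adjusted p was 0.104. At the other end stood Batf2 (-0.36), Atf7 (-0.19) and Atf2 (0.27), for which it was 0.580, 0.575 and 0.699 in edgeR (adjusted p). The median of the 14 log2 fold changes was 0.94 and 8 had groups apart with ischemia higher, where 23.6% of all genes did. DESeq2 called 7 of the 14 higher, where it called 14.8% of all genes. One of the 14, Creb5, which did not pass, reached the FPKM minimum only through ischemia.

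Upstream of AP-1, 17 genes of the ERK, JNK, p38 and ERK5 modules, with the serum response factor gene Srf and its Elk partners, were described. None was called higher or lower by edgeR, where 5.18% and 1.53% of all genes were. None was called by limma on log2(FPKM + 0.1) either, where 850 of the 13964 genes were higher and 262 lower. DESeq2 called 0 higher and 3 lower, where 14.8% and 12.5% of all genes were. The unadjusted edgeR p was under 0.05 for 2 higher and 3 lower genes of the 17, against 18.2% and 14.2% of all genes. The median log2 fold change was -0.12. In 2 of the 17 all ischemia libraries were above all sham libraries, as in 23.6% of all genes, and in 3 they were below, as in 15.0% of all genes. The highest values were those of Map2k1 (0.90), Map2k3 (0.88) and Map2k4 (0.82), kinases of the ERK, p38 and JNK modules. The lowest were those of Mapk10 (-4.05), which encodes the JNK form typical of neurons and heart, Map2k6 (-1.58) and the Fos regulator Elk1 (-0.78). Mapk10 had FPKM of 1.90 and 3.39 in sham replicates 1 and 3, in which the atrial genes were highest, and of 0.014 in sham replicate 2 and 0.050 to 0.14 in ischemia. The part of atrial tissue in this value was not tested.

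Genes known from textbooks as targets of AP-1 were described last. Their list was written with earlier results of these data known, so the counts below describe these genes and are no independent test. Of 14 such genes 12 were tested, of which Mmp9 and Il6 reached the FPKM minimum only through ischemia. Of the 10 that reached it in sham alone, 7 rose at an edgeR adjusted p under 0.05, where 5.18% of all genes rose. None fell, where 1.53% of all genes did. No target had an unadjusted edgeR p under 0.05 in the lower direction, where 14.2% of all genes did. DESeq2 called none lower, where it called 12.5% of all genes. Limma on log2(FPKM + 0.1) called none lower, where it called 262 of the 13964 genes. For these 10 the median log2 fold change was 5.04 and 9 had groups apart, where 23.6% of all genes did. Among the 7 were Plaur, Timp1, Hmox1, Spp1, Ccl2 and Mt2A, which encode the urokinase receptor, an inhibitor of matrix proteases, heme oxygenase, osteopontin, a monocyte chemokine and a metallothionein. Of these, Mt2A had FPKM of 3.62, 5.0 and 12.6 in sham and of 1858, 1285 and 616.8 in ischemia, with a log2 fold change of 7.40 ± 0.72 (SE; edgeR adjusted p 0.0246). Mmp9, which encodes a matrix protease and is also expressed by neutrophils, had 0, 37 and 8 counts in sham and 1209, 7211 and 1282 in ischemia (edgeR adjusted p 0.0444).

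Il6, which encodes a cytokine, had the highest estimate and did not pass (edgeR adjusted p 0.0613). It had 0, 8 and 7 counts in sham and 164, 10265 and 174 in ischemia, so ischemia replicate 2 carried nearly all of them. The lowest estimates were those of the cyclin gene Ccnd1 (0.50, edgeR adjusted p 0.572), the hyaluronan receptor gene Cd44 (2.56, 0.0510) and the urokinase gene Plau (3.41, 0.0545). As for the whole table, no target passed in edgeR when any 1 sham replicate (1, 2 or 3) or ischemia replicate 3 was left out. In each of these fits 9 of the 10 targets that reached the FPKM minimum in sham had an unadjusted edgeR p under 0.05, where 21.6% to 27.3% of all genes did. Without ischemia replicate 1, 9 of these 10 passed, where 10.7% of all genes were higher.

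**Figure D4:**
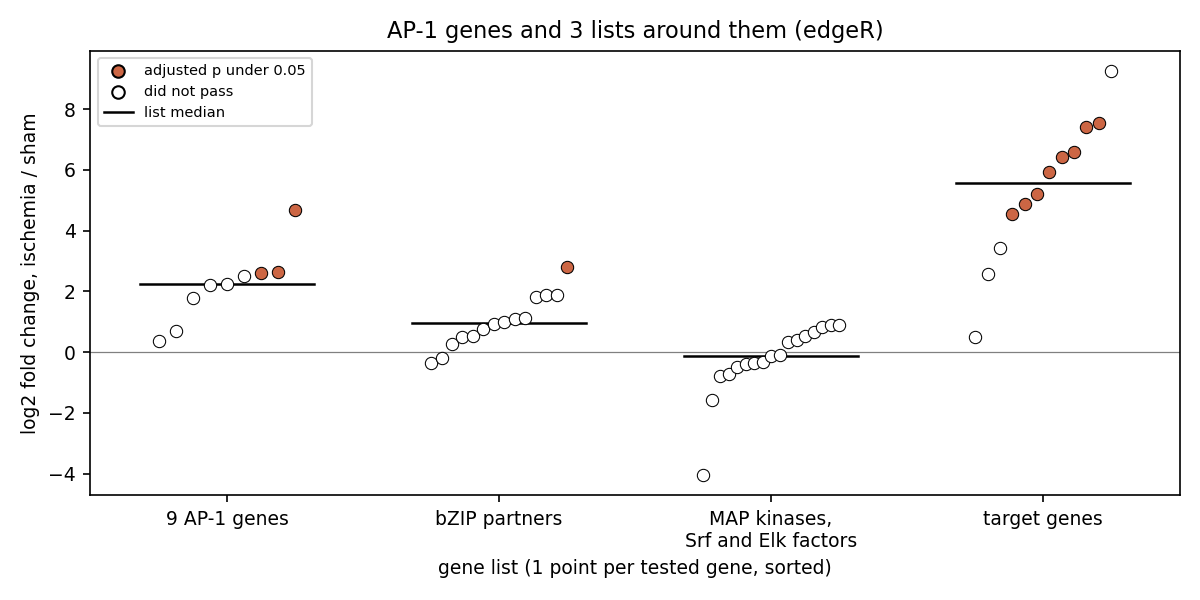
Log2 fold change of ischemia over sham from edgeR for each tested gene of the AP-1 family and of 3 lists around it, sorted within the list and filled where the adjusted p was under 0.05, with a line at the list median. The medians are 2.24 for the 9 AP-1 genes, 0.94 for the bZIP partners, -0.12 for the MAP kinases, Srf and Elk factors and 5.56 for the 12 tested target genes, of which Mmp9 and Il6 were tested only through their ischemia values.

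In the pathway annotation that the table carries, 7 of the 9 genes were listed under osteoclast differentiation, which holds 124 genes, and 5 under IL-17 signaling, which holds 94. The MAPK signaling pathway (296 genes) listed Fos, Jun and Jund, and the TNF signaling pathway (109 genes) listed Fos, Jun and Junb. Of the 3 genes that rose, Fosl1 was found under both of the first pathways and Junb under osteoclast differentiation and TNF signaling, while Batf, like Atf3, carried no pathway.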

How the data were processed

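RNA was sequenced from myocardial tissue of 3 sham and 3 ischemia samples, with a strand-preserving total RNA library kit. The submitters' processing notes name STAR and HTSeq, and their versions, the genome build and the counting settings are not given in the sources used here. The deposited raw counts were whole reads per Ensembl gene, and the deposited FPKM values had been computed by the authors, with 0.0001 for genes without reads. Reads of near-identical or overlapping genes may be misassigned. All 6 columns of each kind were used.

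The 13964 genes whose FPKM averaged 0.5 or more were tested on counts with edgeR's quasi-likelihood test after TMM scaling, with group as the only term. Two-sided p-values were adjusted after Benjamini and Hochberg, and 0.05 was the threshold. Standard errors were derived from the F statistic. Log2 CPM used a prior count of 2. Shares of FPKM were compared with exact permutation tests. The members and lists were chosen with earlier results of these data known. From each list other than the 9 members, the text names the tested genes at both ends of the log2 fold changes, 3 at each end, and for Fos, Jun and Atf3 the 3 genes with the most similar profile. Jdp2, the other called targets, the markers and the Y-linked genes were named outside that rule, after their values were seen. Genes that the rule or the calls include but the text does not name are not reported here. Promoter windows came from RefSeq (GRCr8). The pipeline was tested on simulated counts. Alternatives were DESeq2, limma on log2(FPKM + 0.1) and log2(FPKM + 1), 2 other scalings, 2 other filters, removal of mitochondrial genes, a replicate block and leaving out each library. Versions were DESeq2 1.42.0, edgeR 4.0.16 and limma 3.58.1 under R 4.3.3, and SciPy 1.17.1 and matplotlib 3.10.9 under Python 3.11.15.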

Additional observations from a re-analysis of the deposited data

How the results depend on the processing

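The estimates of all 9 AP-1 genes stayed above 0 under each of the alternatives in which they were tested, and no member was called lower under any of them. The number called higher was 3 in edgeR. It was 7 with DESeq2 and 0 with the replicate number as a block, with which 6 members had an unadjusted edgeR p under 0.05 and 0 of the 13964 genes passed (3349 unadjusted), and it ranged from 0 to 5 over the 6 fits that each left out 1 library. In the 4 such fits with 0 calls, 0 of all genes passed in edgeR, so these zeros are not particular to the members. In these fits 6 to 8 members had an unadjusted edgeR p under 0.05, where 21.6% to 27.3% of all genes did in either direction. The 5 calls came without ischemia replicate 1, where 1490 genes were higher over the table, against 723 with all libraries. Under the other alternatives it was 2 or 3. Same-numbered libraries of the groups had correlations of deviations of -0.056, -0.094 and -0.196, so the numbers were not taken to pair the samples. With the replicate block the log2 fold changes of Junb, Fosl1 and Batf were 2.63, 4.20 and 2.56 (edgeR adjusted p 0.0943, 0.108 and 0.102). Batf also missed the threshold with library totals only and with no filter on low values, and Fosl1 in limma on log2(FPKM + 1). A mean FPKM of at least 5 left out Fosb and Batf. The difference in the share of Atf3 in the FPKM of Atf3 and Batf, -6.11 percentage points, reversed to 0.23 when sham replicate 1 was left out and was -10.1 at its lowest, without ischemia replicate 2, and all other shares kept their direction. Leaving out 1 library gave differences of 28.9 to 36.0 percentage points for Junb, of 17.1 to 35.5 for Fosl1 and of -12.4 to -4.97 for Jun. DESeq2 called 7 of 14 bZIP partners higher and 3 of 17 upstream genes lower, where it called 14.8% of all genes higher and 12.5% lower. Without ischemia replicate 1, 6 partners, 2 of 17 upstream genes and 9 of the 10 target genes that reached the FPKM minimum in sham were higher, against 10.7% of all genes. No gene of these lists passed in the fits in which no gene of the table did. The causes were not tested. With 3 samples a group no exact permutation test could pass, and the call of Batf rested on 30 to 59 counts per sham library.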
